A study of Homo sapiens with 4 samples.

Results

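HSP90 isoforms and their co-chaperones are 10 of the 61806 genes in the count table, chosen by gene symbol: the isoforms HSP90AA1, HSP90AB1, HSP90B1 and TRAP1, and the co-chaperones STIP1, AHSA1, CHORDC1, FKBP4, PTGES3 and CDC37. Poly(A) RNA was sequenced from wild-type MDA-MB-231 cells, a breast cancer line, and MDA-MB-435 cells, a line labelled as melanoma, both as control and given CPYPP (10 µM, 6 h), a compound that the study used to induce paraptosis, a form of cell death with cytoplasmic vacuoles. Each of the 4 conditions is 1 library, so no value here has a replicate, and what the control cells received is not stated. Culture and treatment texts mention MDA-MB-435 alone, so each library was assigned to the line in its own cell line label. Totals lay between 17196385 and 22663954 counts. SOX10, which specifies the melanocyte lineage, was near absent from the MDA-MB-231 libraries (0 and 1 counts) but present in the MDA-MB-435 libraries (3031 and 707 counts), whereas the epithelial keratin KRT19 had 3953 and 2225 counts against 4 and 0. DCT and S100B, of the melanocyte list, separated the lines as SOX10 did. DCT had 1 and 3 counts in the MDA-MB-231 libraries and 658 and 464 in the MDA-MB-435 libraries. S100B had 0 and 0 against 1055 and 761. Some markers did not separate the lines this way. MITF, of the melanocyte list, had 1585 counts in control MDA-MB-231 against 1405 in control MDA-MB-435 cells, and TFAP2A, of the breast list, 355 against 686. The pigment genes PMEL, MLANA and TYR had at most 34 counts in any library, so 3 of the 7 melanocyte markers were near absent from the line labelled as melanoma. In the fit over both lines, the breast epithelial markers GATA3 and TFAP2A (2 of 7, log2 fold changes of -0.95 and -1.11) were lower after CPYPP (edgeR). The melanocyte markers SOX10 and MITF (2 of 7, -1.77 and -0.63) were lower too, and 0 of either list were called higher. The SOX10 value rests on the MDA-MB-435 libraries, since the MDA-MB-231 libraries had 0 and 1 counts. Summed without scaling, and with the treated libraries the smaller ones, the breast markers had 40450 (control) and 26646 (CPYPP) counts in MDA-MB-231 cells. In MDA-MB-435 cells they had 7766 and 5115 counts. The melanocyte markers had 1628 and 737, and 6173 and 2762. Their part in the values below was not tested.

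HSP90 is a dimeric, ATP-driven chaperone that brings kinases, steroid receptors and other client proteins to an active or degradable state. HSP90AA1 and HSP90AB1 encode the stress-inducible and the constitutive cytosolic isoforms, HSP90B1 encodes GRP94 of the endoplasmic reticulum (ER), and TRAP1 is the mitochondrial isoform. Clients reach the cytosolic isoforms from HSP70 through the adaptor STIP1 or, in the case of kinases, with CDC37. AHSA1 stimulates the ATPase, PTGES3 (p23) stabilizes the closed dimer, FKBP4 serves steroid receptors and CHORDC1 binds HSP90 through CHORD and CS domains.

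Over both lines together, the cytosolic isoforms and most of the co-chaperones among the 10 genes were called higher after CPYPP. The organelle isoforms were not. In the fit over the 4 libraries with the cell line as a block, 7 of 10 rose (edgeR quasi-likelihood test, Benjamini-Hochberg adjusted p under 0.05) and 0 fell, where 4.39% of the 16801 genes tested were called higher and 2.85% lower. The 7 were CHORDC1, HSP90AA1, HSP90AB1, STIP1, AHSA1, PTGES3 and FKBP4, with log2 fold changes from 0.41 to 1.67. HSP90B1, TRAP1 and CDC37 did not pass the test. With total counts as the scaling the split over all genes turned from 737 higher and 478 lower to 843 and 1087, and 7 of the 10 were still called higher. The median log2 fold change was 0.53 over the 10 genes and -0.042 over all genes tested. This fit has 1 residual degree of freedom and treats the lines as the repeats of the treatment. Its error comes from the difference between the responses of the lines, which edgeR draws towards a value shared by all genes. The spread between cultures is not part of it.

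Within each line, a gene was called where its fold change exceeded 2 and its adjusted binomial p lay under 0.05, which compares 2 libraries and not the conditions. In MDA-MB-231, 2 of 10 were called higher (HSP90AA1 and CHORDC1) and 0 lower, where 4.22% of all genes tested were called higher and 3.09% lower. Among MDA-MB-435 libraries, 3 of 10 were called higher (HSP90AB1 in addition) and 0 lower, where the shares were 3.17% and 6.52% (524 and 1078 genes, or 370 and 1487 by total counts). At a fold change over 1.5, the same 5 genes were called higher in each line, namely HSP90AA1, HSP90AB1, STIP1, AHSA1 and CHORDC1, where 8.55% of all genes passed in MDA-MB-231 cells, and 8.30% in MDA-MB-435 cells. Both within-line counts fell to 0 when a biological coefficient of variation of 0.4 was assumed, and the count over both lines fell to 0 without the block. Fold changes below are on counts scaled by effective library size, with 95% intervals that cover counting error only. In bulk RNA, a large change in some cells and a smaller change in all of them cannot be told apart.

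HSP90AA1 (ENSG00000080824, chromosome 14, 102080742 to 102139699, minus strand), the stress-inducible isoform, had 67706 counts in control MDA-MB-231 cells and 144260 after CPYPP. In MDA-MB-435 cells it had 52640 counts in the control and 125895 after CPYPP. Both treated libraries lay above both controls. The fold changes were 2.91 (interval 2.88 to 2.93) and 3.08 (3.05 to 3.12), and the log2 fold change over both lines was 1.54 (SE 0.116, adjusted p = 5.55e-05, edgeR). By count it moved from the 11th to the second most abundant gene of the table in MDA-MB-231, and from the 25th to the 6th in MDA-MB-435.

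HSP90AB1 (ENSG00000096384, chromosome 6, 44246166 to 44253888, plus strand), the constitutive isoform, also rose. It had 65155 counts in control and 82095 in treated MDA-MB-231 cells, and 79201 and 127380 in MDA-MB-435 cells. The fold changes were 1.72 (1.70 to 1.74) and 2.07 (2.06 to 2.09), with a log2 fold change of 0.87 over both lines (SE 0.118, adjusted p = 0.00213, edgeR). Its call in MDA-MB-435 sits at the threshold: the fold change was 1.87 by total counts, 1.92 with upper quartile factors and 1.97 with TMM factors taken over the 4 libraries, none of which is called, and 2.09 with DESeq2 size factors, which is. The call in that line was also lost with an assumed coefficient of variation of 0.2.

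CHORDC1 (ENSG00000110172, chromosome 11, 90200429 to 90223077, minus strand) had the largest fold change of the 10 in each line. Its counts went from 2067 to 4594 in MDA-MB-231 and from 3258 to 8941 in MDA-MB-435, and both treated libraries lay above both controls. Its fold changes were 3.03 (2.88 to 3.20) and 3.54 (3.40 to 3.68), and the log2 fold change over both lines was 1.67 (SE 0.113, adjusted p = 2.36e-05, edgeR). It ranked 101st from the highest fold change among the 16801 genes of that fit, and HSP90AA1 142nd.

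**Figure D1:**
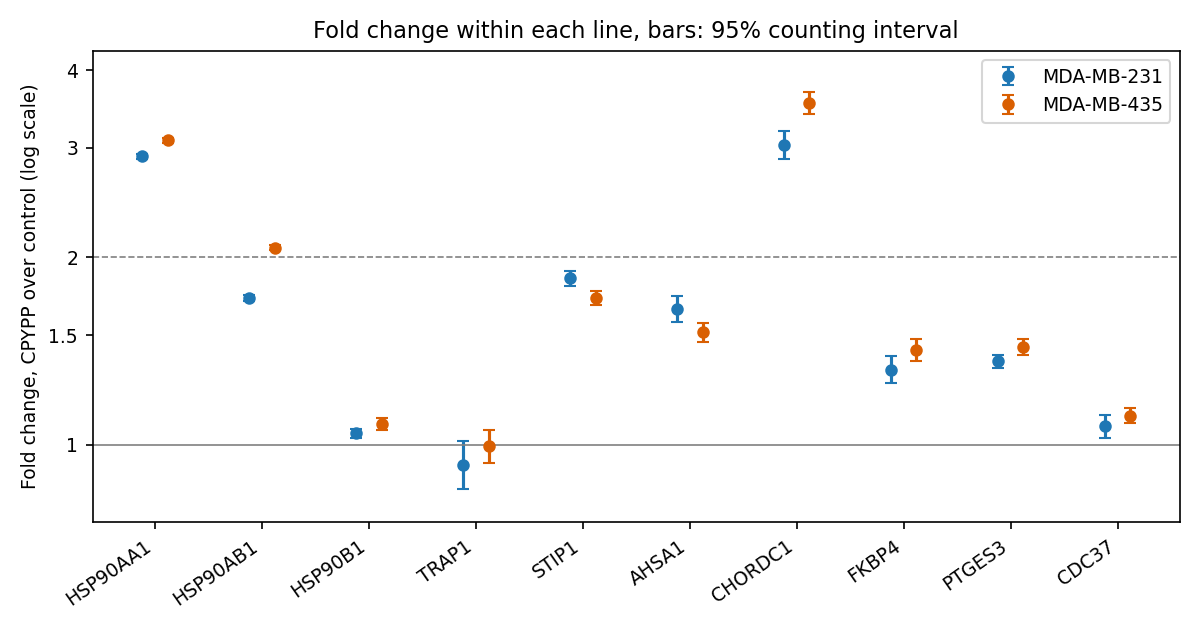
Fold change of CPYPP over control counts (vertical axis, log scale, scaled by effective library size) for each gene in MDA-MB-231 (blue) and MDA-MB-435 (orange), with 95% intervals for counting error; the solid line marks 1 and the dashed line 2. CHORDC1 and HSP90AA1 lie near or above 3 in both lines, HSP90AB1 crosses 2 in MDA-MB-435 alone, and HSP90B1, TRAP1 and CDC37 lie near 1.

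The promoters of these 3 genes are shown because they hold the binding sequence of the heat shock factors in a stretch that few promoters contain. The RefSeq windows (GRCh38.p14, 250 bases before to 50 after a gene start, 35116 windows) were searched on both strands for 3 alternating units, GAANNTTCNNGAA or TTCNNGAANNTTC. Of the 10 genes, 9 had a window, FKBP4 being without, and 3 of the 9 held the element, against 0.490% of all windows and 0.608% of the 27305 genes with one. Each is printed 5′ to 3′ on the strand of the gene, with the element in capitals.
HSP90AA1, chr14:102087111-102087140, minus strand, element at positions -88 to -76 from the start: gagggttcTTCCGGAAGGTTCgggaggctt
HSP90AB1, chr6:44247770-44247799, plus strand, positions -165 to -153: ggagcaggTTCTGGAAGATTCatgggctcc
HSP90AB1, chr6:44247823-44247852, plus strand, positions -112 to -100: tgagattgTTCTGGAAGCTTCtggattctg
CHORDC1, chr11:90223083-90223112, minus strand, positions -60 to -38: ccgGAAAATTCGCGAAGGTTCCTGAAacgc
The CHORDC1 stretch is 23 bases of overlapping matches, whereas the others are 13 bases. In the basic set of GENCODE v29, the HSP90AA1 element lay in an exon of 1 and an intron of 1 of its 2 transcripts, both HSP90AB1 elements lay in an intron of 3 of 4 transcripts, and the CHORDC1 element lay before the start of 4 of 5 transcripts and in an exon of the other. HSP90AA1 has another RefSeq window and HSP90AB1 has 2 more, and these held no match.
The shorter element of 2 units, GAANNTTC or TTCNNGAA, which every 3-unit element contains, was found in the windows of 4 of the 9 genes, STIP1 being the fourth, against 13.5% of all windows. No window of AHSA1, PTGES3, CDC37, TRAP1 or HSP90B1 held either form, which says only that these letters are absent from these windows. Among genes tested over both lines that have a window, the 3-unit element occurred in 14 of the 609 called higher (2.30%), these 3 included, and in 0.485% of all 11540. The 2-unit element occurred in 17.1% of those called higher and in 14.0% of all 11540. A match is a description of the sequence and not evidence of binding.

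Of the other co-chaperones, STIP1 and AHSA1 came next. STIP1 (ENSG00000168439, chromosome 11, 64185272 to 64204543), the HSP70–HSP90 adaptor, had 8552 and 11605 counts in control and treated MDA-MB-231 cells and 10923 and 14570 in MDA-MB-435 cells. Its fold changes were 1.85 (1.80 to 1.90) and 1.72 (1.68 to 1.76), with a log2 fold change of 0.79 over both lines (SE 0.112, adjusted p = 0.00266, edgeR). AHSA1 (ENSG00000100591, chromosome 14, 77457870 to 77469472), the ATPase activator, had 3040 (control) and 3674 (CPYPP) counts in MDA-MB-231 cells, and 6264 and 7358 counts in MDA-MB-435 cells. Its fold changes were 1.65 (1.57 to 1.73) and 1.51 (1.46 to 1.57), and the log2 fold change over both lines was 0.62 (SE 0.111, adjusted p = 0.00881, edgeR). For both genes the fold change was smaller in MDA-MB-435 than in MDA-MB-231 under each of 5 scalings.

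PTGES3 and FKBP4 rose less, and their tests passed with little to spare. PTGES3 (ENSG00000110958, chromosome 12, 56663341 to 56688408), the p23 gene, had 12399 (control) and 12356 (CPYPP) counts in MDA-MB-231 cells, and 9239 and 10280 counts in MDA-MB-435 cells, so that its treated count in MDA-MB-231 was not higher until the smaller treated library was accounted for. Scaled, the fold changes were 1.36 (1.33 to 1.39) and 1.43 (1.39 to 1.48), with a log2 fold change of 0.44 (SE 0.108, adjusted p = 0.0366, edgeR). FKBP4 (ENSG00000004478, chromosome 12, 2794970 to 2805423), the immunophilin of steroid receptor complexes, had 3163 (control) and 3059 (CPYPP) counts in MDA-MB-231 cells, and 4246 and 4673 counts in MDA-MB-435 cells. Its fold changes were 1.32 (1.26 to 1.39) and 1.42 (1.36 to 1.48), with a log2 fold change of 0.41 (SE 0.107, adjusted p = 0.0458, edgeR). Over the alternatives that kept the block, the highest adjusted p was 0.0366 for PTGES3 and 0.0493 for FKBP4 (edgeR or DESeq2).

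CDC37 (ENSG00000105401, chromosome 19, 10391133 to 10420121), the kinase co-chaperone, was not called. It had 4660 (control) and 3651 (CPYPP) counts in MDA-MB-231 cells, and 10880 and 9386 counts in MDA-MB-435 cells, with fold changes of 1.07 (1.02 to 1.12) and 1.11 (1.08 to 1.14). Over both lines the log2 fold change was 0.08 (SE 0.107, adjusted p = 0.740, edgeR). It overlaps PDE4A on the other strand over 3349 bases in GENCODE v29. The strand setting of the counting is not stated, so reads of the shared stretch could belong to either gene, and PDE4A itself had between 260 and 824 counts. The same limit holds for other genes that overlap a protein-coding gene on the other strand. HSP90B1 overlaps C12orf73 over 3730 bases (98 to 229 counts). HSP90AA1 overlaps WDR20 over 197 bases (445 to 870 counts), and AHSA1 overlaps VIPAS39 over 83 bases (339 to 437 counts).

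The ER isoform HSP90B1 (ENSG00000166598, chromosome 12, 103930107 to 103953931, plus strand) had 29189 (control) and 22298 (CPYPP) counts in MDA-MB-231 cells, and 17212 and 14407 counts in MDA-MB-435 cells. Its fold changes were 1.04 (1.02 to 1.06) and 1.08 (1.06 to 1.10), and over both lines the log2 fold change was 0.04 (SE 0.109, adjusted p = 0.884, edgeR). The sign of this small value turned with total counts as the scaling. HSP90B1 was the only one of the 9 genes with a window that held the ER stress element, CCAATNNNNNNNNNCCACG or its reverse complement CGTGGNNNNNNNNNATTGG, which is a binding sequence of ATF6. The element is printed because 0.0769% of all windows contain it and this gene has a copy on each strand. Among genes tested over both lines with a window, it occurred in 4 of the 609 called higher (0.657%). Its share of all 11540 was 0.139%, and HSP90B1 itself was not called.
HSP90B1, chr12:103930211-103930240, plus strand, positions -194 to -176: cctgaCCAATCGGAAGGAGCCACGcttcgg
HSP90B1, chr12:103930316-103930345, plus strand, positions -89 to -71: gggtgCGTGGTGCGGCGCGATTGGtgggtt
The first copy lay before the start of all 3 basic GENCODE v29 transcripts, and the second overlapped an exon of 2 of them. The second copy, 103930321 to 103930339, spans the start of the principal transcript at 103930334.

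TRAP1 (ENSG00000126602, chromosome 16, 3651639 to 3717553), the mitochondrial isoform, had 1221 (control) and 829 (CPYPP) counts in MDA-MB-231 cells, and 2332 and 1796 counts in MDA-MB-435 cells. Its fold changes of 0.927 (0.847 to 1.01) and 0.993 (0.933 to 1.06) both had intervals that include 1. That depended on the scaling. By total counts they were 0.883 (0.807 to 0.965) and 0.896 (0.842 to 0.953). With upper quartile factors they were 0.896 (0.820 to 0.980) and 0.920 (0.864 to 0.978). Over both lines the log2 fold change was -0.10 (SE 0.117, adjusted p = 0.692, edgeR). TRAP1 overlaps DNASE1 on the other strand over 28505 bases, and DNASE1 had between 142 and 313 counts.

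Levels between genes were compared per exon length, as FPKM from the counts, the deposited exon length and the effective library size. Here that size came from TMM over the 4 libraries. The within-line fold changes used TMM within each line, so ratios of FPKM differ somewhat from them. HSP90AB1 led the 10 genes in both controls, at 976 FPKM in MDA-MB-231 and 1122 FPKM in MDA-MB-435, ahead of HSP90AA1 at 593 and 436 FPKM. After CPYPP, HSP90AA1 reached 1712 FPKM and HSP90AB1 1667 FPKM in MDA-MB-231, whereas HSP90AB1 remained ahead in MDA-MB-435 at 2208 against 1276 FPKM. All co-chaperones were below both cytosolic isoforms in every library. PTGES3 stood highest among them in MDA-MB-231 (163 FPKM in the control and 220 FPKM after CPYPP), and in MDA-MB-435 CDC37 led the control with 151 FPKM and STIP1 the treated library with 164 FPKM, where CDC37 had 159 FPKM. CHORDC1 had 8.31 and 12.4 FPKM in the controls and 25.0 and 41.6 FPKM after CPYPP, and TRAP1 10.5 and 19.0 FPKM in the controls and 9.68 and 17.9 FPKM after CPYPP. The deposited exon length joins all isoforms of a gene and was 4.58 times the principal transcript of GENCODE v29 for HSP90B1 and 4.18 times for CHORDC1. With the principal transcript length instead, HSP90B1 stood at 456 and 472 FPKM in MDA-MB-231 and 254 and 260 FPKM in MDA-MB-435. By that length CHORDC1 stood above TRAP1 in both controls (34.8 against 23.7 FPKM and 51.8 against 42.9 FPKM), so the order of these 2 genes in the controls depends on the length used, and the cytosolic isoforms still held the first and second place in every library.

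**Figure D2:**
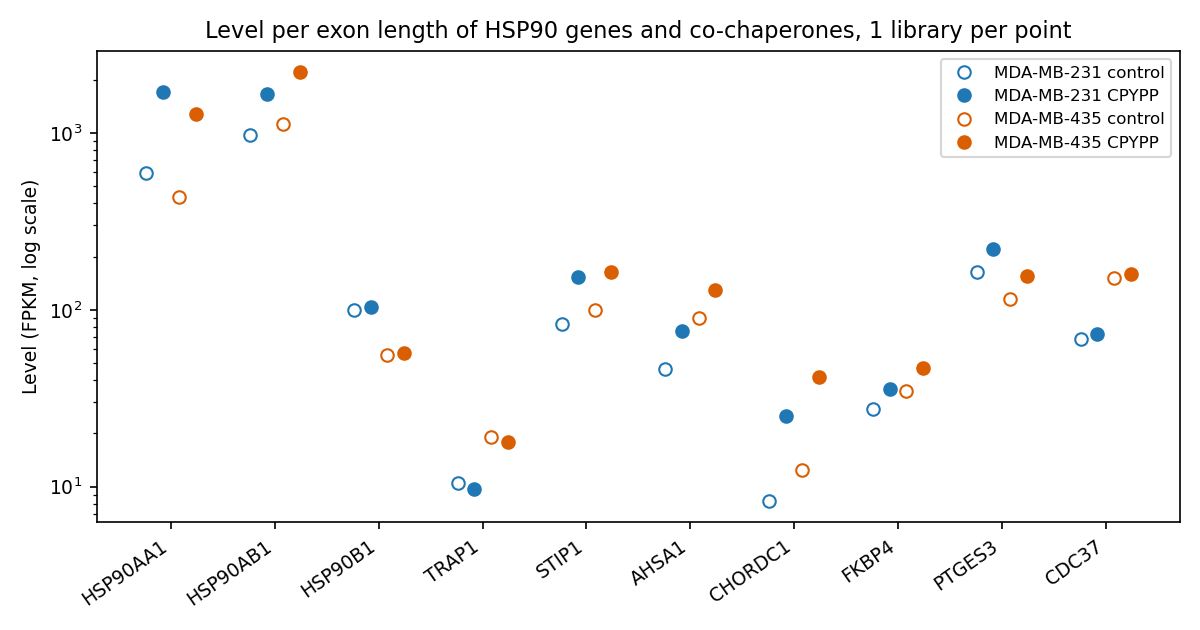
Level of each gene (FPKM per deposited exon length, log scale) in the 4 libraries, open circles for controls and filled circles for CPYPP, blue for MDA-MB-231 and orange for MDA-MB-435; each point is 1 library. The cytosolic isoforms stand above every other gene in all libraries, and the filled circles of CHORDC1 lie above its open circles in both lines, as those of HSP90AA1 do.

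The balance among the 10 genes therefore differed between control and treated libraries. HSP90AA1 and HSP90AB1 together made up 0.594% of control counts in MDA-MB-231 and 1.32% after CPYPP, and 0.582% and 1.30% in MDA-MB-435. Their share of the counts of all 10 genes went from 67.4% to 78.5% and from 67.2% to 78.0%. The ratio of HSP90AA1 to HSP90AB1 counts went from 1.04 (1.03 to 1.05) to 1.76 (1.74 to 1.77) in MDA-MB-231 cells. In MDA-MB-435 cells it went from 0.665 (0.657 to 0.672) to 0.988 (0.981 to 0.996). The ratio was thus multiplied by 1.69 and 1.49, a measure that needs no scaling between libraries.

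Set against the cytosolic isoforms, CHORDC1 was the only co-chaperone of the 6 to gain. Per 1000 counts of HSP90AA1 and HSP90AB1 it had 15.6 and then 20.3 counts in MDA-MB-231, and 24.7 and then 35.3 in MDA-MB-435. STIP1 went from 64.4 to 51.3 and from 82.8 to 57.5. CDC37 had the largest relative loss among the co-chaperones, from 35.1 to 16.1 and from 82.5 to 37.1, that is 0.460 and 0.449 times the control. PTGES3 and FKBP4 lay between 0.568 and 0.585 times the control in both lines. The denominator rose in each of these ratios, so a lower ratio does not mean that the transcript fell.

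**Figure D3:**
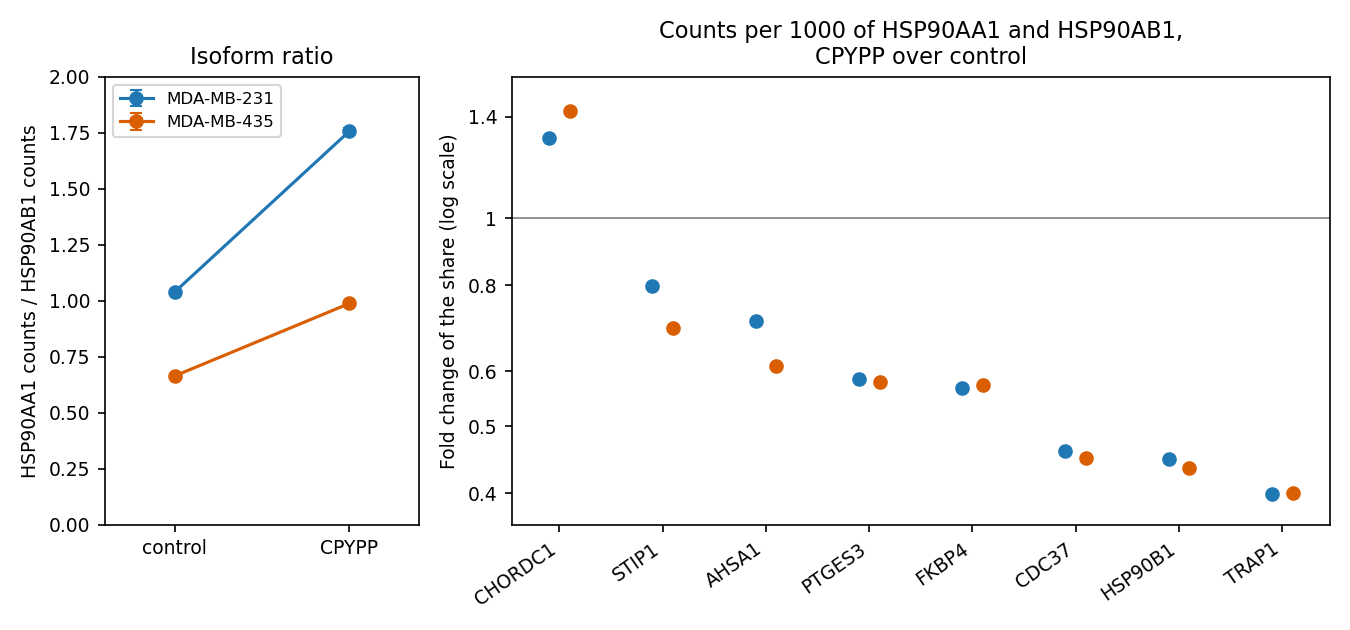
Left, ratio of HSP90AA1 to HSP90AB1 counts in control and CPYPP libraries (linear axis from 0; counting intervals are smaller than the points). Right, fold change, CPYPP over control, of each gene's counts per 1000 counts of HSP90AA1 and HSP90AB1 (log scale, line at 1): CHORDC1 lies above 1 in both lines and the other 7 genes below 1.

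The responses of the lines differed by little for most of these genes. The difference in log2 fold change, MDA-MB-435 minus MDA-MB-231, was largest for HSP90AB1 at 0.27 (counting SE 0.010) and next for CHORDC1 at 0.22 (counting SE 0.048). It was -0.12 for AHSA1, -0.11 for STIP1 and 0.085 for HSP90AA1. With total counts as the scaling, it was largest in size for AHSA1, at -0.20 against 0.19 for HSP90AB1. The small positive differences of CDC37 and HSP90B1 turned negative under 3 of the 5 scalings, and that of PTGES3 under 1. The median size of the difference was 0.102 over the 10 genes and 0.266 over the 14262 genes tested in both lines, many of which have far fewer counts. With 1 library a condition, the difference between lines has no test. For 9 of the 10 genes the controls differed more, on the log2 scale, than the responses. The exception was HSP90AB1, whose control level in MDA-MB-435 was 1.15 times (1.14 to 1.16) that in MDA-MB-231. Relative to MDA-MB-231, the MDA-MB-435 control had 2.21 times (2.13 to 2.29) the CDC37, 1.95 times (1.87 to 2.04) the AHSA1 and 1.81 times (1.68 to 1.94) the TRAP1 counts after scaling. It had 0.558 times (0.547 to 0.568) the HSP90B1, 0.705 times (0.686 to 0.724) the PTGES3 and 0.735 times (0.727 to 0.744) the HSP90AA1 counts. These comparisons of the controls were scaled by TMM over the 4 libraries.

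Among 35 further HSP90 co-chaperones, 33 were tested over both lines, of which 6 rose and 0 fell, with a median log2 fold change of 0.13. For comparison with this list and those below, 4.39% of all genes tested were called higher and 2.85% lower, with a median of -0.042. FNIP2 and FNIP1, folliculin-interacting proteins that slow the HSP90 ATPase, had log2 fold changes of 0.92 (SE 0.145) and 0.87 (SE 0.119). FNIP2 was the single gene of the list called within a line, where MDA-MB-231 cells had 540 and then 805 counts (fold change 2.03, interval 1.82 to 2.27). MDA-MB-435 cells had 540 and then 780 counts (fold change 1.86, interval 1.67 to 2.08). The call of FNIP2 in MDA-MB-231 sits at the threshold, since its interval includes 2, and FNIP1 was not called there at 1.99 (1.87 to 2.11). The other 4 called over both lines were CACYBP at 0.76, TSC1 at 0.68, the cyclophilin PPID at 0.49 and SUGT1 at 0.47. TSC1 is a large co-chaperone better known from the TSC complex, and SUGT1 serves kinetochore assembly. The remaining 27 did not pass, so most co-chaperone genes of this list were not called.

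The HSP70 partners of the cytosolic cycle were the list with the highest median log2 fold change, 1.20 over both lines, with 8 of 10 called higher and 0 lower. HSPA1B and HSPA1A, the inducible HSP70 genes, had the largest values, 6.09 (SE 0.289) and 6.07 (SE 0.279). HSPA1A went from 522 to 16564 counts in MDA-MB-231 and from 593 to 50494 in MDA-MB-435, and HSPA1B from 1181 to 38209 and from 294 to 26838. These genes are near-identical copies, and the split of reads between them is uncertain.

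Among 13 ER partners of HSP90B1, 2 were called higher and 0 lower over both lines, and none within a line. They were DNAJC3, an HSP40 of the ER, at a log2 fold change of 0.52 (SE 0.112, adjusted p = 0.0219, edgeR), and HSPA5, the ER HSP70 BiP, at 0.44 (SE 0.112, adjusted p = 0.0428, edgeR). HSPA5 went from 21511 to 20259 counts in MDA-MB-231 and from 14382 to 16915 in MDA-MB-435, fold changes of 1.29 (1.26 to 1.31) and 1.52 (1.48 to 1.55).

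Among 9 mitochondrial partners of TRAP1, 4 were called higher and 0 lower over both lines. PPIF, the mitochondrial cyclophilin D, had a log2 fold change of 1.06 (SE 0.212, adjusted p = 0.0150, edgeR), and HSPD1, the chaperonin HSP60, 0.85 (SE 0.111, adjusted p = 0.00173, edgeR). PPIF differed between the lines, with 3935 and 4075 counts in MDA-MB-231 (fold change 1.41, 1.35 to 1.48) and 4281 and 10750 in MDA-MB-435 (fold change 3.24, 3.12 to 3.36), and was called within MDA-MB-435 alone. That difference was not tested.

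Genes of 25 HSP90 client proteins had a median log2 fold change of -0.095, with 1 called higher and 1 lower over both lines. These calls lie near the shares of all genes tested, 4.39% higher and 2.85% lower, and are no result about the clients. The mitotic kinase PLK1 had -0.76 (SE 0.110, adjusted p = 0.00301, edgeR) and the kinase SRC 0.72 (SE 0.135, adjusted p = 0.0115, edgeR), and none of the 25 was called within a line. Of the 3 heat shock factors, HSF2 rose by 0.79 (SE 0.151, adjusted p = 0.0119, edgeR), from 878 to 975 counts in MDA-MB-231 and from 553 to 900 in MDA-MB-435. HSF1, which is also on the client list, had -0.24 (SE 0.112, adjusted p = 0.254, edgeR).

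**Figure D4:**
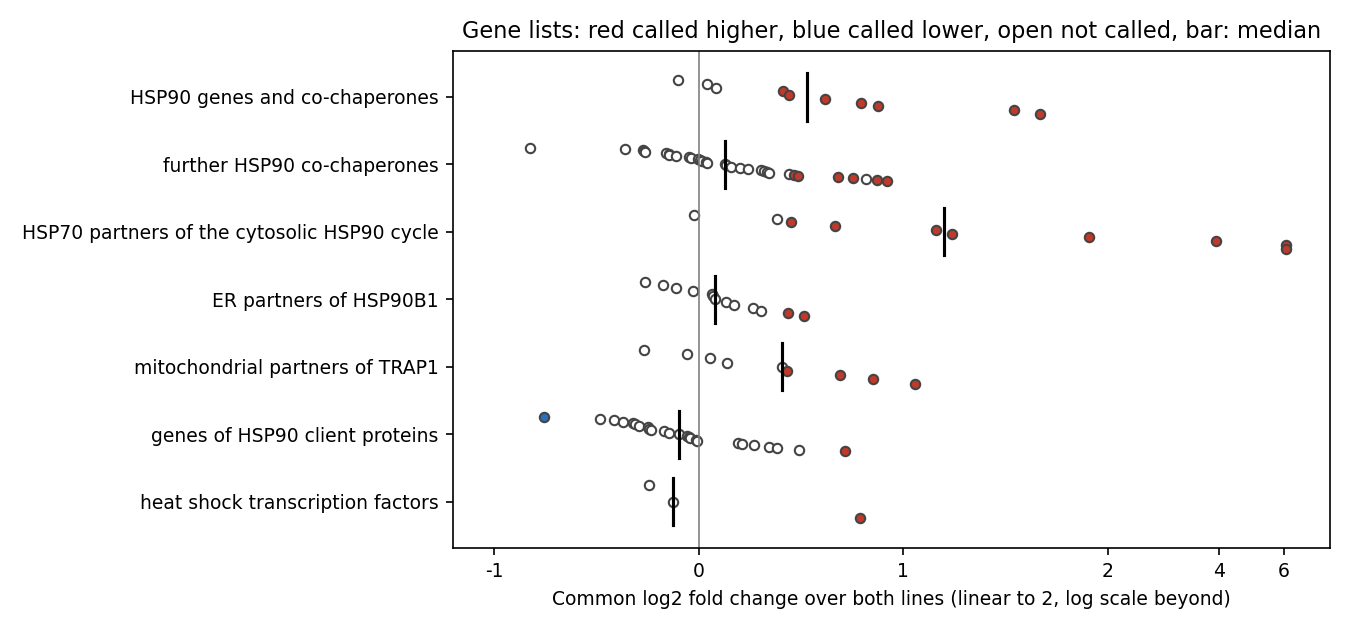
Log2 fold change over both lines (horizontal axis, linear to 2 and on a log scale beyond) for the 10 genes (top) and 6 further lists; each circle is a gene, red called higher, blue called lower, open not called, and the bar is the list's median. Most of the HSP70 partners are red, 7 of the 10 HSP90 and co-chaperone genes are red, and most circles of the other co-chaperones and of the clients are open.

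The genes whose pair of within-line log2 fold changes lay closest to that of HSP90AA1, by Euclidean distance over 9362 genes with at least 100 counts in each library, were HSPB8 (distance 0.0719), HSP90AA2P (0.0999), RIT1 (0.161), MRNIP (0.191) and DNAJB9 (0.191). HSPB8, a small heat shock protein, went from 314 to 638 counts in MDA-MB-231 and from 680 to 1602 in MDA-MB-435, fold changes of 2.77 (2.42 to 3.18) and 3.04 (2.78 to 3.33). DNAJB9, an HSP40 of the ER, had fold changes of 2.88 (2.59 to 3.20) and 3.52 (3.16 to 3.92). HSP90AA2P is a processed copy of HSP90AA1 on chromosome 11 and is not independent of it, since reads of near-identical copies cannot be assigned with certainty.

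Copies of the 10 genes held few counts. HSP90AA2P had 517, 1042, 461 and 1058 counts in control and treated MDA-MB-231 and control and treated MDA-MB-435 cells, between 0.722% and 0.876% of those of HSP90AA1. HSP90AB3P had between 0.356% and 0.403% of the counts of HSP90AB1, and PTGES3P1 between 0.995% and 1.35% of those of PTGES3. The copies CHORDC1P4, HSP90B2P, PTGES3P3, HSP90AB2P, CDC37P2 and HSP90AA6P each had at most 51 counts in any library. Adding the copies to their parent genes changed no call.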

How the data were processed

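The authors deposited raw read counts per gene for 4 libraries, with gene positions and exon lengths and no normalization. By the study's methods, a service provider sequenced the libraries, and the reads were then trimmed, aligned and quantified, by whom is not stated. The submitters' processing notes name cutadapt 1.9.1, HISAT2 2.2.1, HTSeq 0.6.1, DESeq2 and the build GRCh37.p13, but 58204 of 58254 gene positions shared with GENCODE v29 overlap it, so coordinates were read as GRCh38. The annotation version and strand setting are not given in the sources used here.

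The counts were tested with edgeR 4.0.16 (R 4.3.3) and tabulated in Python 3.11.15. Within each line, genes with at least 10 counts in either library were scaled by TMM, counts up to 3 were set to 3 in fold changes, intervals were exact (Clopper-Pearson, 95%), and calls used edgeR's binomial test over all genes tested. The common effect used filterByExpr, TMM and the quasi-likelihood test with the line as a block; its biological coefficient of variation was 0.121. Scripts were tested on simulated data. Alternatives were other scalings, no count filter, DESeq2 1.42.0, assumed dispersions, other fold thresholds, no block, and copies summed. TMM over the 4 libraries also scaled the levels and the comparison of the controls. As an alternative for the within-line fold changes it was chosen after seeing the data, as was the principal transcript length. Depth between 17196385 and 22663954 counts gives narrow intervals for these genes, whose lowest count was 829.

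The 10 genes and all lists were chosen with earlier results of these data known. All 10 are named, together with each further co-chaperone called over both lines, the pair with the largest absolute change of every other list, the 5 genes nearest to HSP90AA1, and copies with at least 10 counts. FNIP2's call and the markers KRT19, PMEL, TYR, MITF, DCT and S100B were named after their values were seen. A p-value within a line measures the difference between single libraries. One from the fit over both lines tests the effect of CPYPP, with the lines as its only repeats.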

Additional observations from a re-analysis of the deposited data

How the results depend on the processing

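The fit over both lines pairs control and CPYPP within each line through the cell line block. The labels give no replicate numbers that could pair libraries further, and with 1 library a condition none was left out. The 7 genes called higher over both lines were also called under every scaling, without the count filter, with the copies summed and with the DESeq2 test, and the call count fell to 0 only without the cell line as a block, where 0 genes of the table were called higher or lower and 167 had an unadjusted p under 0.05 (edgeR). Of the 10 genes, 5 were called higher in each line at a fold change over 1.5, where 8.55% and 8.30% of all genes passed. With no minimum fold change 9 were called higher, as were 3973 of 16441 genes tested in MDA-MB-231 and 4559 of 16527 in MDA-MB-435. In each line, 0 of the 10 were called where a coefficient of variation of 0.4 was assumed. For all genes in MDA-MB-231, the 694 higher and 508 lower calls became 457 and 271 with at least 10 counts in every library, 113 and 43 with an assumed coefficient of 0.2, 4 and 0 with 0.4, 1406 and 1095 at a fold change over 1.5, and 3973 and 3434 with no minimum fold change. In MDA-MB-435, the 524 higher and 1078 lower calls became 124 and 147 with a coefficient of 0.2, 13 and 1 with 0.4, 1372 and 1883 at a fold change over 1.5, and 4559 and 3842 with no minimum fold change; the lower calls were 602 with at least 10 counts in every library. Over both lines, the 737 higher calls became 1116 without the filter and 1263 with the DESeq2 test, and the 478 lower calls became 1087 with total counts, 729 with DESeq2 size factors, 812 with upper quartile factors, 885 without the filter and 868 with the DESeq2 test. Total counts moved the median log2 fold change of all genes by -0.070 in MDA-MB-231 cells, -0.15 in MDA-MB-435 and -0.066 over both lines. Small values changed sign: HSP90B1 had log2 fold changes of -0.0097 in MDA-MB-231 cells, -0.039 in MDA-MB-435 and -0.024 over both lines with total counts, and -0.00092 in MDA-MB-435 with upper quartile factors, and TRAP1 had 0.0035 in MDA-MB-435 with DESeq2 size factors. The fit without replicates limits all calls: neither the spread between cultures nor the difference between the lines could be tested.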
